A study of Nothobranchius furzeri with 6 samples.

Results

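Rod photoreceptors are the retinal neurons that detect dim light. The rods described here are the 3683 cells that carry the name Rods in the finest level of the authors' cell annotation, out of 37243 cells of killifish retina. The annotation was made by clustering and its rods coincide with 1 cluster, so that genes which set rods apart from other cells are given as a description and were not tested. All fish were untreated females of the turquoise killifish Nothobranchius furzeri, a vertebrate that ages within months, and belonged to the inbred strain GRZ-AD. Neural retina was taken, after removal of the pigment epithelium, at 6 (young adult), 12 (middle-aged) and 18 weeks (old). There were 2 libraries for each age, which pooled 3 fish at 6 weeks and 2 fish at 12 or 18 weeks. Transcripts were counted per cell as unique molecular identifiers (UMIs), tags that mark each captured molecule. Levels are given on 2 scales. Shares, ratios between cell types and levels in rods of different depth are plain counts, scaled to 1000000 UMIs of the cells summed (CPM). Levels and list sums per library in the comparisons of ages are CPM on the scale of the test, in which edgeR's TMM method multiplies each library's total by a factor (0.939 to 1.07 for rods, with totals over the tested genes), so that a gene's value there can differ from its plain CPM. Replicates are libraries (n = 2 at each age).

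In a rod, light switches on the G protein transducin and then a phosphodiesterase that breaks down cyclic GMP. The fall in cyclic GMP closes the cation channels of the outer segment and lowers transmitter release at the ribbon synapse. Arrestin, a receptor kinase and guanylate cyclase with its activating proteins end the response. The outer segment is a stack of membrane discs rich in polyunsaturated lipids that is renewed throughout life, and rods are known for a high demand for energy.

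The name fitted the markers. Levels were compared between the 10 of 12 annotated cell types that had at least 10 cells in every library. Cells annotated as pigment epithelium or red blood cells were too few and are left out of these ratios and ranks. The ratio of the level in rods to that in the next highest cell type was 22.4 for GNAT1 (rod transducin alpha, XLOC_015910), and SAGA (rod arrestin, XLOC_015147) had a ratio of 21.0, PDE6A (catalytic phosphodiesterase subunit, XLOC_005400) of 23.2 and NRL (the transcription factor that sets rod fate, XLOC_023574) of 7.12. Other genes of the light response had the same standing, among them PDE6B with a ratio of 29.2, GRK1(2OF2), a photoreceptor kinase, with 26.0, GUCY2F, a guanylate cyclase of the outer segment, with 25.9, and CNGA1(2OF2), a subunit of the cyclic GMP-gated channel, with 24.3. The disc rim proteins ROM1A and ROM1B had ratios of 24.4 and 23.2. After each cell was thinned to 1000 UMIs, 99.0% of rods held a UMI of GNAT1, 97.1% of SAGA, 85.3% of PDE6A and 14.7% of NRL. In horizontal cells, which should lack these transcripts, the shares were 20.8%, 18.1%, 2.80% and 0.184%. Median depths before thinning were 2050 UMIs in rods and 4596 in horizontal cells. A single barcode was shared between rods of different libraries.

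A set of 91 entries reached at least 100 CPM in rods and 4 times the next type, and together they held 27.6% of the rods' UMIs. Not all abundant transcripts were particular to rods. CCDC88B, named here after its values were seen, took up 5.02% of rod UMIs (3.89% to 5.82%) but its level in rods was 0.637 times that in horizontal cells. The entry 28S_rRNA, ribosomal RNA, took up 0.326% to 1.87%.

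Rods were of unequal depth, and this sets a limit on everything that follows. The number of UMIs per rod had a peak near the minimum of 1000 UMIs and a wide second range above 3000 UMIs, with fewer cells between them. Rods with over 3000 UMIs, a limit chosen after seeing the data, made up 27.9% and 42.9% of rods in the 6-week-old libraries (replicates 1 and 2), 46.2% and 33.7% at 12 weeks, and 38.1% and 35.8% at 18 weeks. These cells held 56.9% to 73.1% of a library's rod UMIs. Between 3.14% and 8.11% of rods lay within 10% of the limit. The classes are ranges of depth, with no statement on cell types. No doublets were called, and their part in the high range was not tested. The shares overlapped between ages.

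**Figure D1:**
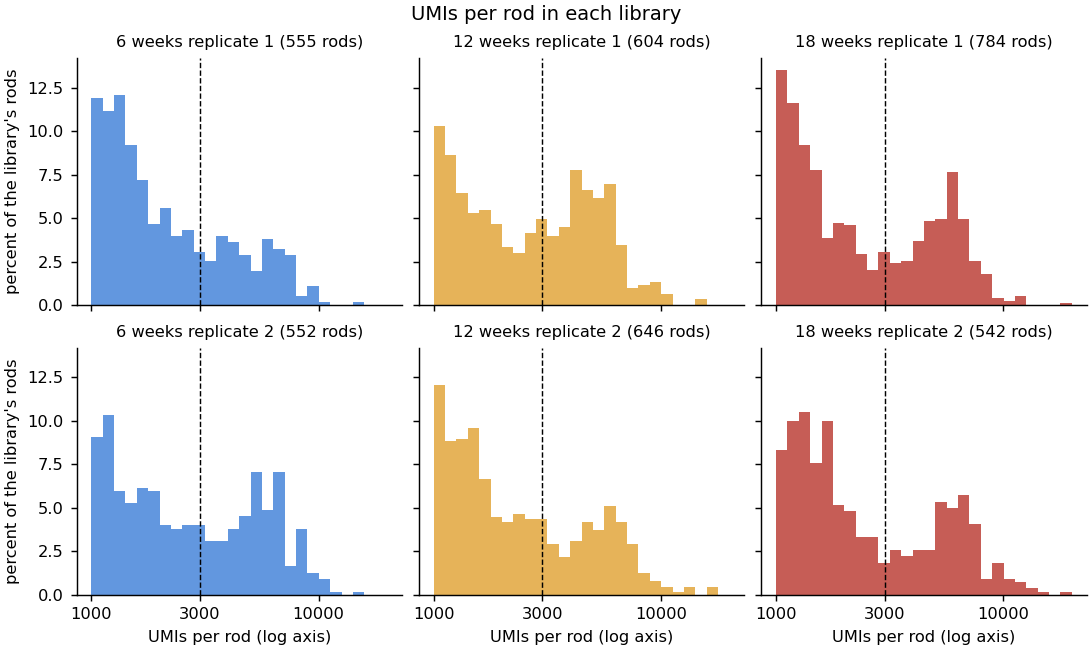
Number of UMIs per rod (x axis, log scale) as percent of the rods of each library (y axis), with 1 panel per library and the limit of 3000 UMIs dashed. A low and a high range are seen at every age, with 27.9% to 46.2% of rods above the limit.

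The deeper rods held more transcripts of the light response and of energy supply per UMI. Within each library the summed level of the 28 rod phototransduction entries was higher in rods over 3000 UMIs, by 1.05 to 1.38 times, and that of the photoreceptor transcription factors by 1.35 to 1.63 times. The summed level was also higher for nuclear genes of the respiratory chain (1.39 to 1.92 times), for antioxidant genes (1.66 to 2.42 times) and for cytosolic ribosomal proteins (1.27 to 2.07 times). Among single genes, GNB1A (transducin beta) had a mean of 13082 CPM in deep and 5039 CPM in shallow rods, PDE6G (the inhibitory phosphodiesterase subunit) 12699 and 6027 CPM, RCVRNA (recoverin) 3248 and 1499 CPM, and CRX, a transcription factor of photoreceptors, 859.9 and 375 CPM, each higher in the deep rods of all 6 libraries. PDE6A did not follow, with means of 2098 and 2102 CPM. Markers of other cells went both ways. The summed level of amacrine markers in deep rods was 0.241 to 0.392 times that in shallow rods and that of bipolar markers 0.314 to 0.641 times, while Müller glia markers (1.02 to 1.79 times) and markers of differentiating cells (1.28 to 2.02 times) were higher in the deep rods of all 6 libraries. RLBP1A, which the study uses as a marker of Müller glia, went the other way. Its mean was 264 CPM in deep and 545 CPM in shallow rods, lower in the deep rods of all 6 libraries. The mean level of 28S_rRNA was 8228 CPM in deep and 22887 CPM in shallow rods. These differences are a description of cells of the same libraries, and the part of free RNA or of doublets in them was not tested.

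Rods made up a larger part of the photoreceptors in the older libraries, by a difference that did not pass the test after adjustment. Of rods and cones together, 48.6% (Wilson 95% interval 45.8 to 51.5) and 51.4% (48.5 to 54.4) were rods at 6 weeks, 57.0% (54.0 to 60.0) and 67.7% (64.7 to 70.6) at 12 weeks, and 65.8% (63.1 to 68.5) and 65.8% (62.5 to 68.9) at 18 weeks. Every 12- and 18-week-old library lay above both 6-week-old libraries. The means were 50.04% ± 1.98 (SD, n = 2) at 6 weeks and 65.8% ± 0.0356 at 18 weeks, a difference of 15.8 percentage points with an exact permutation p of 0.0667 (two-sided, over the 90 ways to assign 6 libraries to 3 ages). The smallest p that this design allows is 0.0222, and over the 12 tests of rod shares and depth the adjusted exact p was 0.400. Depth per rod gave no such order, since median UMIs were 1740 and 2427 at 6 weeks, 2775 and 1973 at 12 weeks, and 1945 and 1887 at 18 weeks (difference of −168 UMIs between 18 and 6 weeks, exact permutation p 0.756). At 1000 UMIs a rod held a median of 590.0 and 553 genes at 6 weeks and of 557 and 559 at 18 weeks (exact permutation p 0.511). Among cells with over 3000 UMIs the difference in the share of rods was 19.8 percentage points, and among shallower cells it was 8.80. Intervals cover counting error only.

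**Figure D2:**
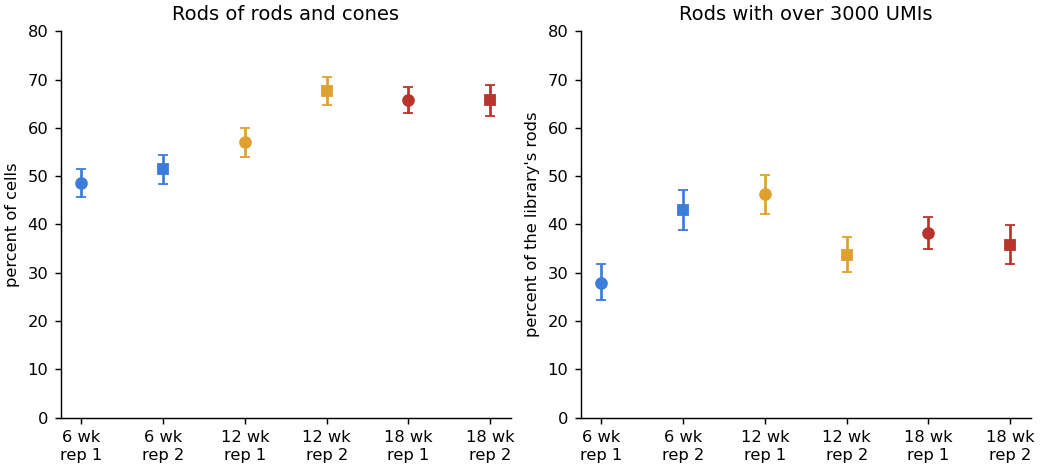
Left, rods as percent of rods and cones, and right, rods with over 3000 UMIs as percent of rods, for each of the 6 libraries (x axis), with Wilson 95% intervals as bars. On the left the 18-week-old libraries are both at 65.8% and the 6-week-old libraries at 48.6% and 51.4%, while on the right the ages overlap.

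Expression in the sum of a library's rods was then compared between ages to see which transcripts changed within this cell type. At 18 against 6 weeks 270 of 10840 genes, 2.49%, passed an adjusted p of 0.05 in edgeR's quasi-likelihood test, 99 of them higher (0.913%) and 171 lower (1.58%) at 18 weeks. Fatty acid-binding proteins, sterol synthesis genes, a linker histone and ribosomal RNA were among those that fell. The ferritin subunit FTL, clusterin and a small heat shock protein were among those that rose. The 4 markers of rods did not pass the test. Of the 99 higher genes 23 had their highest level in rods among the 10 cell types compared, and of the 171 lower genes 12 did. In contrast, 63 of the lower genes and 11 of the higher genes stood in rods at under 10% of the level of another type. The number of calls depended on single libraries, being 88 or 75 when replicate 1 or 2 of 18 weeks was left out and 519 or 544 when replicate 1 or 2 of 12 weeks was. It also depended on depth, with 548 of 9372 genes (5.85%, of which 2.4% higher and 3.45% lower) in rods over 3000 UMIs and 71 of 7285 (0.975%, of which 0.439% higher and 0.535% lower) in shallower rods, 232 and 63 of them among the 270. Counts of called entries in the gene lists below are to be read beside these shares.

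No gene of the light response was called over all rods, and 2 were called in the deeper rods. GNAT1 had 11678 and 15429.6 CPM at 6 weeks, 15270.2 and 12581 CPM at 12 weeks, and 12757 and 12486 CPM at 18 weeks (log2 fold change −0.10 ± 0.26 SE at 18 against 6 weeks, edgeR adjusted p 0.907), with libraries of every age overlapping. PDE6A, at 1975 and 2049 CPM at 6 weeks and 2157 and 2172 CPM at 18 weeks, NRL, at 160.4 and 179 and at 190.1 and 168 CPM, and SAGA had adjusted p-values of 0.878, 0.909 and 0.955. None of the 28 phototransduction entries, 18 tested photoreceptor transcription factors or 5 tested entries of the visual cycle, which regenerates the chromophore, was called, and the median log2 changes were 0.03, −0.25 and 0.17, beside −0.00 over all genes. At an unadjusted p under 0.05 the counts were 3, 2 and 0, and DESeq2 called none. Of the 91 entries enriched in rods 3 rose, among them HSPB6, and none fell (median 0.11). GUCA1A, a guanylate cyclase activator, had 3843 and 4559.8 CPM at 6 weeks and 7871 and 6988 CPM at 18 weeks (log2 fold change 0.82 ± 0.30, adjusted p 0.185), and SAMD7, which represses non-rod genes in mouse rods, had 105 and 129.7 CPM and 78.3 and 55.3 CPM (−0.80 ± 0.22, adjusted p 0.0724). In rods over 3000 UMIs 2 of 26 tested phototransduction entries were called higher, GUCA1A (log2 fold change 0.88, adjusted p 0.00901) and CNGB1(2OF2) (0.64, adjusted p 0.0142), and 1 of 16 photoreceptor transcription factors was called lower, SAMD7 (−1.03, adjusted p 0.00339). Of all genes tested in these deeper rods 2.4% were called higher and 3.45% lower. In shallower rods none of either list was called. Over all rods the log2 change of SAMD7 was 0.96 more positive than in cones, so that its fall was larger in cones and not particular to rods.

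Of 35 tested outer segment entries 1 rose and 1 fell (median 0.03), where 0.913% of all genes were called higher and 1.58% lower. These calls are given as single genes and not as a result for the list. MPP5A, a polarity scaffold of the photoreceptor's apical junctions, rose from 46.8 and 54.6 CPM to 95.1 and 115 CPM (log2 fold change 1.04 ± 0.21, adjusted p 0.0109). An entry of PROM1B (XLOC_003157), a prominin of the disc edge, fell from 62.2 and 69.5 CPM to 33.5 and 30.2 CPM (−1.04 ± 0.24, adjusted p 0.027). The other tested PROM1B entry, XLOC_002890, had a higher mean level (434 CPM, beside 49.3 CPM for XLOC_003157). It did not pass (−0.05 ± 0.20, adjusted p 0.947). Neither called entry was particular to rods, as the level of MPP5A was 41.3% of that in Müller glia and that of XLOC_003157 112% of that in cones. The call of MPP5A was lost without 6-week-old replicate 1 or 18-week-old replicate 2 (adjusted p 0.085 and 0.194), and that of the PROM1B entry XLOC_003157 without 6-week-old replicate 2 (0.132) or either 18-week-old library (0.156 and 0.286).

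Some transcripts of lipid handling were among the falls that held with each library left out. FABP7A (XLOC_022174), a fatty acid-binding protein with a preference for docosahexaenoic acid, had 968 and 1050.3 CPM at 6 weeks, 620.5 and 597 CPM at 12 weeks, and 197 and 155 CPM at 18 weeks. The 3 ages did not overlap. Lack of overlap between 6 and 18 weeks was part of the rule for naming the largest changes, and 46.4% of the 10840 genes showed it. The log2 fold change of FABP7A was −2.52 ± 0.22 at 18 against 6 weeks (adjusted p 6.85e-06) and −1.79 ± 0.21 at 18 against 12 weeks (adjusted p 0.000553). Its relative FABP3 followed the same order, with 108 and 120.3, then 70.9 and 64.2, then 25.5 and 26.8 CPM (−2.12 ± 0.21, adjusted p 3.18e-05). ACSL4A, which activates long polyunsaturated fatty acids, fell from 128 and 87.2 CPM to 20.1 and 14.3 CPM (−2.61 ± 0.31, adjusted p 0.000204). Among the cell types ACSL4A stood in rods at 108% of the next level, FABP7A at 51.4% of that in oligodendrocytes and FABP3 at 5.21% of it.

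Sterol and fatty acid synthesis genes also fell. Of 15 tested sterol synthesis entries 5 fell and none rose, with a median log2 change of −0.93. INSIG1, an endoplasmic reticulum protein that holds back sterol synthesis and is itself a target of the sterol-sensing factors, fell from 46.8 and 32.6 CPM to 5.44 and 3.99 CPM (−3.02 ± 0.38, adjusted p 0.000286). SREBF1 and SREBF2, the transcription factors of fatty acid and sterol synthesis, fell by 1.40 ± 0.24 (adjusted p 0.00366) and 0.92 ± 0.22 (adjusted p 0.0353) on the log2 scale, FDPS, which makes farnesyl diphosphate, by 1.44 ± 0.27 (adjusted p 0.00766), and HMGCRA, the rate-limiting reductase (named as the fifth call of the list, outside the rule), by 0.87 ± 0.21 (adjusted p 0.039). ACACA, acetyl-CoA carboxylase, fell from 75.1 and 55.2 CPM to 19.3 and 24.5 CPM (−1.58 ± 0.24, adjusted p 0.00169). Of 11 tested entries of polyunsaturated lipid handling 5 fell and none rose, although the list's median was −0.06. Beside FABP7A and FABP3 these were SMPDL3A, a phosphodiesterase related to acid sphingomyelinase, ELOVL5, a fatty acid elongase, and SCD, a desaturase, the last again outside the rule. ELOVL5 and SCD were nearly undetected at 18 weeks, at 0 and 0.57 CPM and at 0.42 and 0.57 CPM, and SMPDL3A and ELOVL5 stood in rods at 3.11% and 2.13% of the level in Müller glia. DESeq2 called 4 of the 15 sterol synthesis entries and 2 of the 11 lipid handling entries. In rods over 3000 UMIs 1 of 10 lipid handling entries was called higher and 4 lower, where 2.4% and 3.45% of all genes were. In shallower rods 3 of 9 were called lower and none higher, where 0.535% and 0.439% of all genes were.

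FABP7A, FABP3, ACSL4A and INSIG1 passed the test in each of the 6 fits that left out 1 library. The calls of SREBF1 and ACACA were lost without 18-week-old replicate 1 (adjusted p 0.0912 and 0.0544), that of SMPDL3A without 18-week-old replicate 2 (0.217), that of FDPS without either 18-week-old library (0.109 and 0.0515) and that of ELOVL5 without 6-week-old or 18-week-old replicate 1 (0.0937 and 0.123). SREBF2, HMGCRA and SCD were lost in each fit without a 6- or 18-week-old library, with adjusted p-values up to 0.389, 0.328 and 0.299.

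Among genes of energy supply, LDHA and TPI1B were the 2 calls of 27 tested glycolysis entries (median −0.08). LDHA, a lactate dehydrogenase subunit, fell from 80.2 and 98.2 CPM to 27.6 and 30.8 CPM (−1.62 ± 0.24, adjusted p 0.0012) and held in every leave-one-out fit. TPI1B, triosephosphate isomerase, fell from 209.8 and 238 CPM to 132 and 104 CPM (−0.92 ± 0.20, adjusted p 0.0206), and its call was lost without 6-week-old replicate 2 (0.116) or either 18-week-old library (0.116 and 0.413). Of 65 tested nuclear genes of the respiratory chain 1 was called, NDUFA4, which fell from 84.1 and 192 CPM to 50.2 and 50.8 CPM (−1.45 ± 0.29, adjusted p 0.0109) and was lost without 6-week-old replicate 2, 18-week-old replicate 1 or 18-week-old replicate 2 (0.201, 0.109 and 0.101). The called NDUFA4 entry, XLOC_018357, had a mean of 90.8 CPM. LDHA, TPI1B and this entry stood in rods at 0.193, 0.237 and 0.131 times the level in the highest other type. Entries named NDUFA4(1OF2) did not pass, among them XLOC_016635 at 645 CPM (0.26 ± 0.21, adjusted p 0.630) and XLOC_010795 at 298 CPM (−0.37 ± 0.24, adjusted p 0.504). The median of the respiratory chain list was −0.35 with 11 entries above 0. In cones it was −0.34, with 11 of 67 entries above 0, 4 called lower and 1 higher, beside 209 lower and 265 higher of all 11317 genes. In rods over 3000 UMIs 14 of 64 entries fell, where 3.45% of all genes were called lower, and in shallower rods 2 of 63 fell, where 0.535% were.

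Some ribosomal protein transcripts fell. Of 74 tested entries 7 fell and none rose, 1 had a log2 change above 0, and the median was −0.54. In cones 5 of 74 fell, where 209 of all 11317 genes were called lower, and the median was −0.27. RPS20 had 499.9 and 610.4 CPM at 6 weeks and 261 and 175 CPM at 18 weeks (−1.34 ± 0.24, adjusted p 0.00555), and RPL39 had 947 and 1192 CPM and 554 and 485 CPM (−1.04 ± 0.23, adjusted p 0.0184). RPS20 and RPL39 stood in rods at 0.0882 and 0.139 times the level in the highest other type. In rods over 3000 UMIs 57 of 74 entries fell, where 3.45% of all genes were called lower, and the median was −0.65 beside 0.01 over all genes. In shallower rods none was called, with a median of −0.49 beside −0.01. The summed level per library was 47159 and 58731 CPM at 6 weeks, 50737 and 37555 CPM at 12 weeks, and 39037 and 32101 CPM at 18 weeks, so that the 12-week-old libraries lay on either side. Without 18-week-old replicate 2 the adjusted p of RPS20 and RPL39 was 0.217 and 0.357, and RPL39 was also lost without 6-week-old replicate 2 (0.124) or 18-week-old replicate 1 (0.165). Only 7 of 50 entries with an unadjusted p under 0.05 passed after adjustment, and DESeq2 called 10.

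Histone and structural RNA transcripts fell as well. H1F0, the linker histone of non-dividing cells, had 566 and 649 CPM at 6 weeks, 189 and 225 CPM at 12 weeks, and 144 and 113 CPM at 18 weeks, and fell by 1.55 ± 0.21 on the log2 scale at 12 weeks (adjusted p 0.00218) and by 2.23 ± 0.22 at 18 weeks (adjusted p 2.46e-05) against 6 weeks. It was 1 of 5 histone and chromatin calls among 23 tested entries (median −0.22), all of them lower, with HMGA1, an architectural DNA-binding protein, and 3 entries that share the name HIST1H2BD(2OF2) and could share reads. HMGA1 was lost without 18-week-old replicate 2 (0.0931). 7SK, the small nuclear RNA that restrains transcription elongation, had 382 and 388 CPM at 6 weeks, 367 and 308 CPM at 12 weeks, and 28.5 and 26.2 CPM at 18 weeks (−3.81 ± 0.23, adjusted p 8.31e-08). 28S_rRNA went from 17706 and 17574 CPM to 5363 and 3289 CPM (−2.03 ± 0.28, adjusted p 0.000804), and was lost without 18-week-old replicate 2 (0.0761). These non-coding RNAs were lower in the 18-week-old libraries in cones too (−3.54 ± 0.18 for 7SK and −1.78 ± 0.20 for 28S_rRNA), and without them 263 genes were called in rods.

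**Figure D3:**
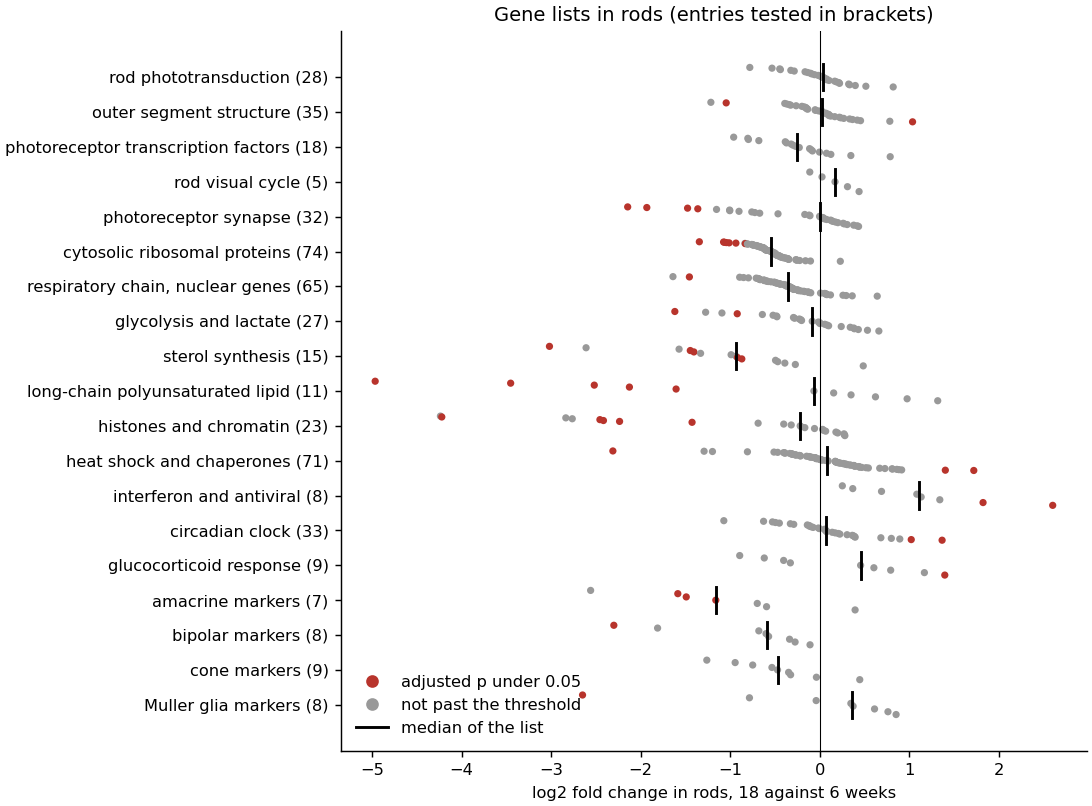
Log2 fold change in rods at 18 against 6 weeks (x axis) of every tested entry of 19 gene lists (y axis, with the number tested), with entries past an adjusted p of 0.05 in red and the median of each list as a black bar. Phototransduction lies around 0.03, ribosomal proteins around −0.54, sterol synthesis around −0.93, and amacrine markers around −1.16.

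Among the rises were genes of protein quality control and a ferritin subunit. CLU, clusterin, an extracellular chaperone, had 31.4 and 22.6 CPM at 6 weeks, 51.4 and 48.2 CPM at 12 weeks, and 118 and 88.4 CPM at 18 weeks (log2 fold change 1.94 ± 0.24, adjusted p 0.000257). Its ages did not overlap, which the naming rule asks for between 6 and 18 weeks. HSPB6, a small heat shock protein whose level in rods was 6.42 times that in the next type, rose from 329 and 313 CPM to 1069.8 and 728 CPM at 12 weeks (1.49 ± 0.23 against 6 weeks, adjusted p 0.00559) and was at 904 and 794 CPM at 18 weeks (1.40 ± 0.23, adjusted p 0.00278). FTL, a ferritin subunit that stores iron, rose from 451 and 530.4 CPM to 1284 and 1114 CPM (1.29 ± 0.21, adjusted p 0.00307), and stood in rods at 1.75 times the level in cones. CLU, in contrast, stood in rods at 3.46% of its level in Müller glia. Entries of FTH1A, another ferritin subunit, did not pass. XLOC_013112 had a mean of 3506 CPM (−0.19 ± 0.26, adjusted p 0.803) and XLOC_019652 of 38.8 CPM (0.26 ± 0.26, adjusted p 0.703). An entry of HSPA1A (XLOC_003379), an inducible HSP70, had 112 and 48.6 CPM at 6 weeks, 205 and 78.6 CPM at 12 weeks and 289 and 236 CPM at 18 weeks (1.72 ± 0.37, adjusted p 0.0176). Another HSPA1A entry, XLOC_002541, had a higher mean level (322 CPM, beside 161 CPM) and did not pass (0.92 ± 0.30, adjusted p 0.138). Of 71 tested heat shock and chaperone entries HSPB6 and XLOC_003379 rose and 1 fell (median 0.09), the last being HSPB1, from 46.8 and 29.8 CPM to 10.5 and 3.99 CPM (−2.31 ± 0.36, adjusted p 0.00237).

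Single regulators of the cell cycle, the stress hormone response and the clock rose too, as 2 of 13 tested cell cycle and senescence entries (median −0.06), 1 of 9 glucocorticoid response entries (median 0.46) and 2 of 33 clock entries (median 0.07), with none lower. Over all genes 0.913% were called higher. In rods over 3000 UMIs 3 of 9 glucocorticoid response entries were called higher and 1 lower, and 4 of 32 clock entries higher and 2 lower. Of all genes tested in these deeper rods 2.4% were called higher and 3.45% lower. CDKN1A (the cell cycle inhibitor p21) had 33.4 and 35.9 CPM at 6 weeks and 93.8 and 95.8 CPM at 18 weeks (1.45 ± 0.33, adjusted p 0.0265), while the 12-week-old libraries differed from each other, with 101 and 35.8 CPM. GADD45AB, a growth arrest and DNA damage response gene, rose from 117 and 137 CPM to 223 and 267 CPM (0.95 ± 0.22, adjusted p 0.0322), and was lost without any 6- or 18-week-old library (0.0575 to 0.354). FKBP5, a co-chaperone of the glucocorticoid receptor, showed the same split, with 249.6 and 211 CPM, then 629 and 353 CPM, then 608 and 606 CPM (XLOC_015884, 1.40 ± 0.25, adjusted p 0.00554). Its second entry, XLOC_015883, did not pass (1.17 ± 0.34, adjusted p 0.0808), and reads of copies like these could be shared between entries. NPAS2, a clock transcription factor, rose by 1.02 ± 0.20 (adjusted p 0.0109), and AANAT(1OF3), an entry of the enzyme that sets the rhythm of melatonin synthesis, by 1.37 ± 0.24 (adjusted p 0.00551). Another entry, AANAT(2OF3), with a mean of 303 CPM in rods and 6.99 times the level of the next type, was not called. POR(1OF2), the electron donor of cytochrome P450 enzymes, rose from 27 and 22.1 CPM to 74.1 and 83.8 CPM (1.69 ± 0.28, adjusted p 0.00307), and LIMA1, an actin-binding protein, from 186 and 168 CPM to 423 and 449 CPM (1.30 ± 0.21, adjusted p 0.00259). The largest rise among named genes at 50 CPM or more belonged to CDC42EP4A, an effector of the GTPase CDC42, with 27 and 18.2 CPM at 6 weeks, 73.1 and 59.7 CPM at 12 weeks and 78.3 and 95.8 CPM at 18 weeks (1.95 ± 0.25, adjusted p 0.000293). Interferon-linked entries were at low levels, and of 8 tested 2 rose (median 1.11), namely IRF3, from 5.78 and 4.42 CPM to 21.4 and 14.3 CPM, and TRIM25, from 2.57 and 1.1 CPM to 13.0 and 9.12 CPM (adjusted p 0.0211 and 0.0227). DESeq2 called none of the 8. In cones 4 of 7 tested interferon-linked entries were called higher (median 1.05), where 265 of all 11317 genes were.

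CLU, CDC42EP4A, POR(1OF2), LIMA1 and HSPB1 passed in every leave-one-out fit, and so did SLC38A10, an amino acid transporter of the same family as glutamine carriers, at 107 and 94.4 CPM and 229 and 241 CPM. The call was lost without 18-week-old replicate 1 for HSPB6 and FTL (adjusted p 0.0569 and 0.0833) and without 18-week-old replicate 2 for FKBP5 and AANAT(1OF3) (0.0501 and 0.0727). It was lost without 6-week-old replicate 2 or 18-week-old replicate 1 for HSPA1A (0.106 and 0.0951) and IRF3 (0.115 and 0.271), and without any 6- or 18-week-old library for CDKN1A (0.0692 to 0.100). NPAS2 and TRIM25 lost it without 6-week-old replicate 2 or either 18-week-old library (up to 0.205 and 0.298). With DESeq2 the adjusted p was 0.336 for HSPA1A, 0.325 for CDKN1A, 0.149 for IRF3 and 0.148 for TRIM25.

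**Figure D4:**
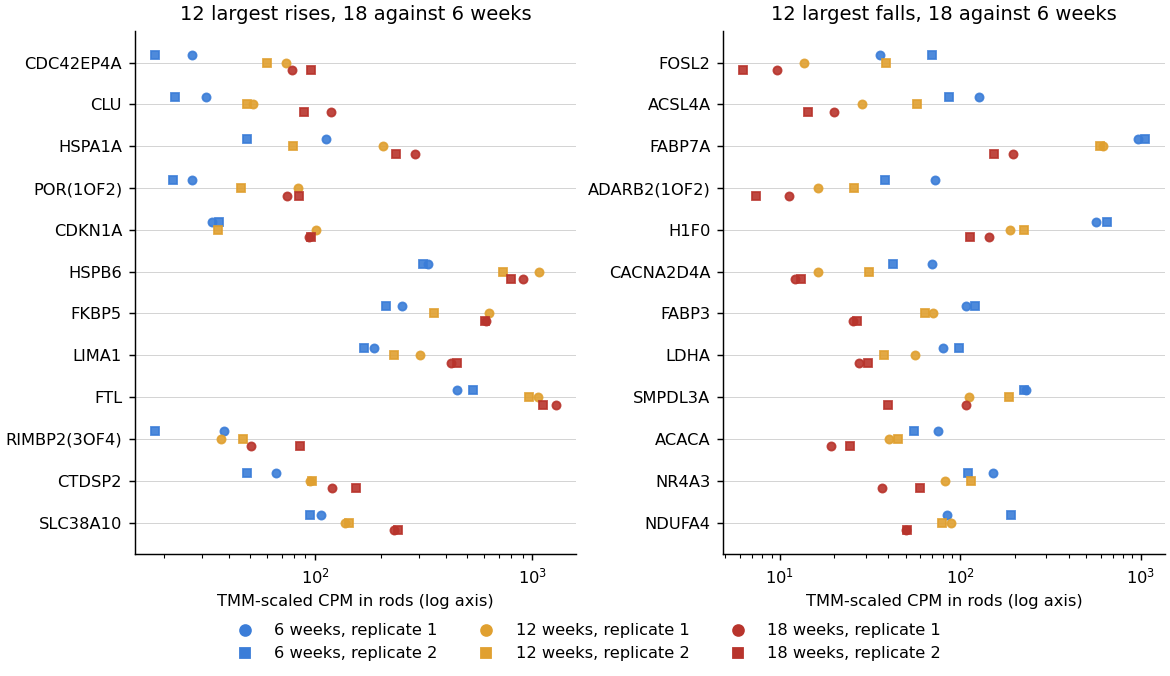
TMM-scaled CPM in rods (x axis, log scale) of the 12 largest called rises (left) and falls (right) at 18 against 6 weeks, with 1 point per library, circles for replicate 1 and squares for replicate 2, and colours for age. For FABP7A the 18-week-old libraries lie at 197 and 155 CPM, below the 12-week-old at 620.5 and 597 CPM and the 6-week-old at 968 and 1050.3 CPM.

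A few transcripts of the synapse fell, and 4 markers of other neurons in the rod libraries passed the test as lower in edgeR but not in DESeq2. Of 32 tested synapse entries 4 fell and none rose (median 0.00), while DESeq2 called 2 of the 32. CACNA2D4A, 1 copy of a calcium channel subunit of the photoreceptor ribbon synapse, fell from 69.9 and 42.5 CPM to 12.1 and 13.1 CPM (−2.14 ± 0.32, adjusted p 0.0015). Another copy, CACNA2D4B, had a higher mean level in rods (89.8 CPM, beside 30.9 CPM) and did not pass (−0.12 ± 0.23, adjusted p 0.877). CPLX3, a complexin of ribbon synapses, CTBP2, whose RIBEYE form builds the ribbon, and SYT1A, a synaptotagmin, fell by 1.93 ± 0.36, 1.48 ± 0.28 and 1.36 ± 0.29 on the log2 scale (adjusted p 0.00766, 0.00912 and 0.0167). Rods held each of the 4 called entries at a small part of the level of another type, 14.8% of bipolar cells for CACNA2D4A, 7.37% of bipolar cells for CTBP2, and 1.24% and 0.850% of amacrine cells for CPLX3 and SYT1A. In the same libraries the amacrine markers in rods summed to 185 and 115 CPM at 6 weeks, 102 and 142 CPM at 12 weeks, and 73.3 and 78.7 CPM at 18 weeks. Of 7 tested amacrine markers 3 fell, GAD2, GAD1B and SLC6A9, with GAD2, which makes the transmitter GABA, at 76.4 and 46.4 CPM and then at 27.6 and 26.8 CPM (−1.16 ± 0.25, adjusted p 0.0203). GAD2, GAD1B and SLC6A9 were called in 3, 3 and 2 of the 6 leave-one-out fits, and with DESeq2 their adjusted p was 0.0507, 0.146 and 0.301. Bipolar markers summed to 263 and 217 CPM at 6 weeks and 154 and 151 CPM at 18 weeks, with 1 of 8 tested lower (CABP5B). CABP5B was lost without any 6- or 18-week-old library (adjusted p 0.0794 to 0.200) and with DESeq2 (0.127). Cone markers summed to 1136 and 735 CPM and then to 885 and 949 CPM, with none of 9 called. Müller glia markers summed to 3323 and 4072 CPM and then to 5305 and 5028 CPM, with 1 of 8 lower (RLBP1B). In all other cells together the same markers summed to 3290 to 5700 CPM over the 6 libraries. Those other cells include the Müller glia, and the source of these transcripts in rods was not tested. By the study's own staining RLBP1B transcript lies in the pigment epithelium and RLBP1A in the neural retina. The source of the RLBP1B reads in rods was not tested. The part of RNA from other cell types in the falls of the synapse, lipid, energy supply and ribosomal protein genes, and in the rise of CLU, was not tested. CACNA2D4A held in every leave-one-out fit, CPLX3 was lost without 18-week-old replicate 1 (0.109), CTBP2 without either 18-week-old library (0.0793 and 0.0979), and SYT1A without 6-week-old replicate 1 or either 18-week-old library (up to 0.142).

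Further falls included immediate early genes. FOSL2, a subunit of the AP-1 factor, fell from 35.9 and 69.5 CPM to 9.63 and 6.27 CPM (−2.70 ± 0.43, adjusted p 0.00259), and NR4A3, an orphan nuclear receptor, from 153 and 110.4 CPM to 36.8 and 59.9 CPM (−1.46 ± 0.26, adjusted p 0.00554), as 2 calls of 12 tested (median −0.42). NR4A3 was lost without 18-week-old replicate 1 (0.138). The entry ZC3HDC1L, to which the study ties the autophagy receptor optineurin, rose from 8.98 and 12.1 CPM to 53.6 and 27.4 CPM (1.95 ± 0.33, adjusted p 0.00421; 0.0922 without 18-week-old replicate 1).

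The middle age differed from both others in a few neuronal transcripts. At 12 against 6 weeks 17 genes were called (0.157%, with 0.0554% higher and 0.101% lower), and at 18 against 12 weeks 27 genes (0.249%, with 0.083% higher and 0.166% lower). Both comparisons share the 12-week-old libraries. CHRM3A, a muscarinic acetylcholine receptor, had 101 and 80 CPM at 6 weeks, 24.9 and 18.4 CPM at 12 weeks, and 64.1 and 61 CPM at 18 weeks. Its log2 fold change was −2.07 ± 0.24 at 12 against 6 weeks (adjusted p 0.000598) and 1.53 ± 0.24 at 18 against 12 weeks (0.00532). DSCAMB, a cell adhesion molecule, had 58.4 and 51.3, then 15.7 and 20.9, then 51.1 and 46.8 CPM (−1.57 ± 0.24 at 12 against 6 weeks, adjusted p 0.00519, and 1.41 ± 0.24 at 18 against 12 weeks, adjusted p 0.00822). NECAB2, a neuronal calcium-binding protein, had 78.3 and 67.3, then 14.6 and 32.8, then 69.1 and 60.4 CPM (−1.60 ± 0.28 at 12 against 6 weeks, adjusted p 0.0216, and 0.0824 without 12-week-old replicate 1). At 18 against 12 weeks NECAB2 had 1.44 ± 0.28 (adjusted p 0.0352), and was lost without 12-week-old replicate 1 (0.081) or either 18-week-old library (0.197 and 0.0605). In rods these 3 stood at 49.3% and 13.8% of the level in ganglion cells (CHRM3A and NECAB2) and at 18.5% of that in amacrine cells (DSCAMB). EGFRA, a receptor of epidermal growth factor, was called at 18 against 12 weeks, with 50.4 and 71.6 CPM and then 18 and 22.8 CPM (−1.59 ± 0.25, adjusted p 0.00615, and 0.148 without 18-week-old replicate 1). The call at 18 against 12 weeks was lost for CHRM3A and DSCAMB without 18-week-old replicate 1 (0.0585 and 0.110).

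The change with age was set against that of the cones of the same libraries, to see which changes differed between these 2 types. The difference of the 2 changes passed the test for 165 of 11832 genes (1.39%), 62 with a change more positive (0.524%) and 103 with a change more negative in rods (0.871%). FABP7A was among the latter. In cones FABP7A had 249.7 and 161 CPM at 6 weeks and 147 and 144 CPM at 18 weeks (−0.50 ± 0.18, adjusted p 0.124), and the difference of the changes was −2.02 ± 0.20 on the log2 scale (adjusted p 3.99e-12). None of 3 lipid synthesis genes was called in cones, with INSIG1 at 46.7 and 35.3 CPM and then 39 and 47 CPM, SREBF1 at 34.8 and 31.6 and then 33.8 and 30.5 CPM, and ACACA at 29.1 and 29.8 and then 28.7 and 28.7 CPM. The differences for INSIG1, SREBF1 and ACACA were −3.05 ± 0.35, −1.35 ± 0.25 and −1.53 ± 0.28 (adjusted p 7.66e-10, 0.000188 and 0.000212). The differences of SREBF1 and ACACA were lost without 18-week-old replicate 1 (0.122 and 0.0691). CACNA2D4A had 77.2 and 53 CPM in cones at 6 weeks and 64.3 and 75.1 CPM at 18 weeks, with a difference of −2.21 ± 0.27 (adjusted p 8.33e-09).

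EGFRA and LAMC3 changed in opposite directions in rods and cones, while MAP3K12(1OF2), POR(1OF2) and CNGB1(2OF2) passed the test in 1 of the types or in neither. EGFRA rose in cones from 92.2 and 117 CPM to 219.8 and 273 CPM (1.24 ± 0.16, adjusted p 0.000119) and fell in rods, with a difference of −2.45 ± 0.25 (adjusted p 1.66e-11). LAMC3, a laminin chain of the basement membrane, rose in cones from 36 and 18.9 CPM to 66.4 and 70.2 CPM (1.30 ± 0.24, adjusted p 0.00305) and fell in rods from 69.3 and 35.3 CPM to 20.1 and 20 CPM (difference −2.67 ± 0.26, adjusted p 4.12e-12). MAP3K12(1OF2), a kinase of axon injury signalling, rose in cones from 14.4 and 7.44 CPM to 34.3 and 44.6 CPM (1.82 ± 0.28, adjusted p 0.00069) and had 125 and 96.6 CPM and then 62.4 and 59.3 CPM in rods, where its change did not pass (−0.86 ± 0.24, adjusted p 0.0708; difference −2.67 ± 0.27, adjusted p 4.12e-12). POR(1OF2), which rose in rods, had 26.8 and 25.1 CPM in cones at 6 weeks and 17.1 and 22.6 CPM at 18 weeks, where its change did not pass (−0.41 ± 0.22, adjusted p 0.343; difference 2.11 ± 0.29, adjusted p 3.69e-07). The fall of EGFRA within rods at 18 against 6 weeks (−1.25 ± 0.26, adjusted p 0.0154) and that of LAMC3 (−1.37 ± 0.29, adjusted p 0.0148) were each lost in 3 of the 6 leave-one-out fits. CNGB1(2OF2), a subunit of the cyclic GMP-gated channel, had 438 and 552 CPM in rods at 6 weeks and 656 and 762 CPM at 18 weeks, and 728 and 808 CPM and then 579 and 662 CPM in cones. Its change passed neither in rods (0.52 ± 0.22, adjusted p 0.267) nor in cones (−0.31 ± 0.15, adjusted p 0.289), while the difference did (0.85 ± 0.18, adjusted p 0.00306). In shallower rods the change was −0.12, and the difference was lost without either 18-week-old library (0.115 and 0.128). H1F0 was not called as different, and fell in cones from 891 and 1035 CPM to 269 and 247 CPM (−1.90 ± 0.15, adjusted p 4e-07), and the difference of −0.32 ± 0.18 did not pass (adjusted p 0.516).

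**Figure D5:**
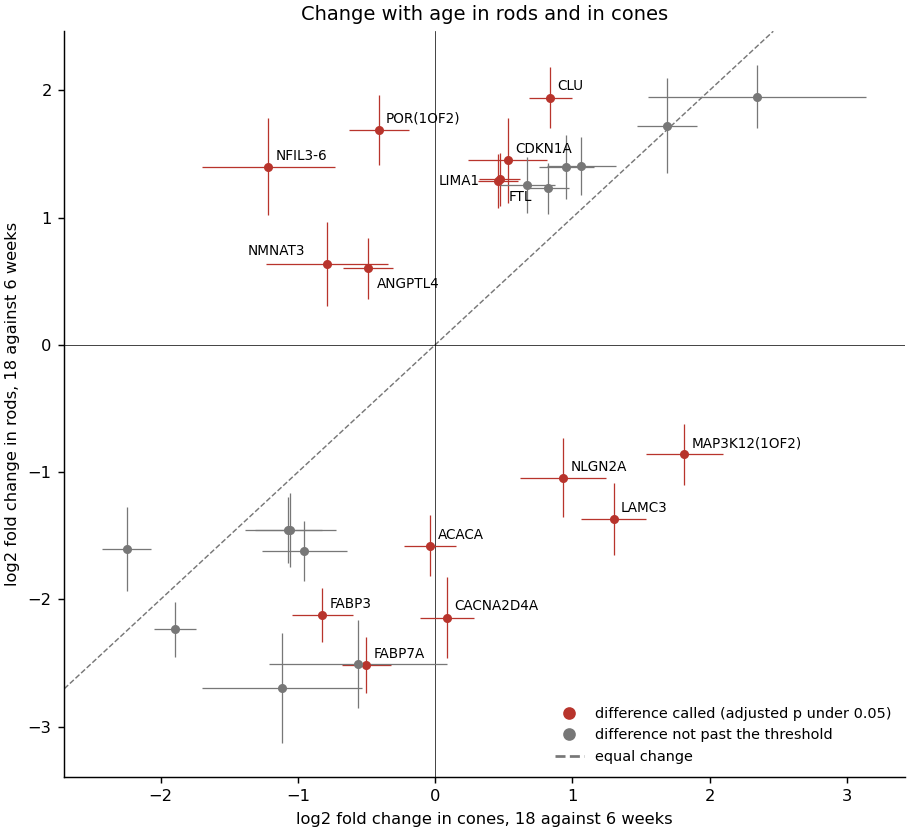
Log2 fold change at 18 against 6 weeks in cones (x axis) and in rods (y axis), with SE as bars, for the genes named as the largest changes in rods or the largest differences from cones. Genes whose difference was called are in red and named, the dashed line marks equal change, and FABP7A and POR(1OF2) lie off that line on opposite sides.

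Against all other cells together 261 of 17861 genes (1.46%) differed in their change, 102 more positive (0.571%) and 159 more negative (0.89%) in rods. ACSL4A (−2.34 ± 0.25, adjusted p 3.57e-17), FOSL2 (−2.31 ± 0.31, adjusted p 1.27e-10) and ADARB2(1OF2), an entry related to RNA-editing deaminases (−2.31 ± 0.29, adjusted p 1.9e-12), had the largest negative differences by the rule, and POR(1OF2) (1.73 ± 0.24, adjusted p 1.97e-09) and LIMA1 (1.34 ± 0.20, adjusted p 3.49e-08) were among the positive ones. This sum holds many cell types whose shares differ between libraries, and limma with voom called 2 genes in place of 261. Sterol synthesis entries were lower with age in the other cells too, at 871 and 896 CPM at 6 weeks and 614 and 503 CPM at 18 weeks. Entries of polyunsaturated lipid handling had 2234 and 2547 CPM and then 1415 and 1040 CPM there. The change was called more negative in rods for 2 of 20 sterol synthesis entries (median −0.24) and 4 of 16 lipid handling entries (median −0.30), and more positive for none.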

How the data were processed

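The authors deposited raw UMI counts for each gene in each cell, with their annotation of the cells. The authors mapped reads with Cell Ranger 7.0.1 to a custom transcriptome built on the GRZ assembly, kept cells with more than 1000 and fewer than 20000 transcripts, and clustered and named cells with Monocle3. Whether doublets were removed is not given in the sources used here, and no doublet caller was run. Nothing in the labels or methods makes the 2 libraries of an age share fish, and each pooled several, so that p-values measure the spread between pools.

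Counts were summed over the rods of each library and fitted with edgeR 4.0.16 in R 4.3.3 (TMM scaling, filterByExpr by age, quasi-likelihood test, all 6 libraries in 1 fit, Benjamini-Hochberg adjustment over all genes, threshold 0.05). The study's regression over single cells takes cells as replicates and was not followed. Differences from cones or from all other cells were tested as the interaction of type and age with the library as a block. Shares and depths were compared by exact permutation over libraries in scipy 1.17.1. The code was tested on simulated data. Library totals were 17393089 to 24317894 UMIs, and rods held 1478478 to 2427193 of them.

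Members and gene lists were chosen with earlier results of these data known. Named genes were the markers, the 12 largest rises and falls among called genes with a symbol, 50 CPM or more in 1 age and no overlap between the 2 ages, up to 4 members of each list by p-value, the 3 largest changes in each direction in the other contrasts and the 5 largest differences from cones and from other cells. They also included the most enriched genes and genes that the study's text ties to rods or ageing. Some genes that the rule names are not reported here. Alternatives were the replicate block, RLE scaling, DESeq2 1.42.0, limma 3.58.1 with voom, no low-count filter, the 4 libraries compared, each library left out, thinning to 1000 UMIs, rods up to 2 times the median UMIs, and non-coding RNA left out. Splits at 3000 UMIs and a crossed pairing were added after seeing the data. Names with several entries could share reads.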

Additional observations from a re-analysis of the deposited data

Results flagged for a closer look

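The change between 6 and 18 weeks differed between rods and cones, by the test of the difference itself, for 18 of the genes named, and the values are log2 changes in rods minus those in cones. The change was more positive in rods for NFIL3-6 (2.64), POR(1OF2) (2.11), NMNAT3 (1.31), CLU (1.13), ANGPTL4 (1.08), SAMD7 (0.96), CDKN1A (0.94), FTL (0.86) and CNGB1(2OF2) (0.85). It was more negative in rods for INSIG1 (−3.05), MAP3K12(1OF2) (−2.67), LAMC3 (−2.67), EGFRA (−2.45), CACNA2D4A (−2.21), FABP7A (−2.02), NLGN2A (−1.94), ACACA (−1.53) and SREBF1 (−1.35). A more positive change can be a smaller fall, as for SAMD7, whose change in rods was −0.80. NMNAT3 stood far higher in cones, at 735 to 3194 CPM over the 6 libraries, than in rods, and its difference was lost without 6-week-old replicate 2 or 18-week-old replicate 1 (edgeR adjusted p 0.400 and 0.0967). The difference was lost without 6-week-old replicate 2 or 18-week-old replicate 1 for CLU (0.207 and 0.0743), without 6-week-old replicate 1 or 18-week-old replicate 2 for ANGPTL4 (0.302 and 0.239), without either 18-week-old library for FTL (0.145 and 0.0916), without 18-week-old replicate 1 for SAMD7 (0.371), and without 6-week-old replicate 1 or either 18-week-old library for CDKN1A (0.203, 0.208 and 0.0880).

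Against all other cells the change differed for 10 of the genes named. It was more positive in rods for POR(1OF2) (1.73), NMNAT3 (1.45), LIMA1 (1.34), CLU (1.34) and ZSWIM5 (1.22), and more negative for ACSL4A (−2.34), FOSL2 (−2.31), ADARB2(1OF2) (−2.31), CACNA2D4A (−2.24) and LAMC3 (−1.99). Without 6-week-old replicate 2 the difference was lost for NMNAT3, CLU and ZSWIM5 (adjusted p 0.147, 0.125 and 0.116).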

How the results depend on the processing

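At 18 against 6 weeks the 270 calls became 172 with DESeq2, 542 without the low-count filter, 471 with the 4 libraries compared, 49 in thinned rods, 21 in rods up to 2 times the median UMIs, 548 over and 71 up to 3000 UMIs, and 75 to 544 with a library left out. At 12 against 6 weeks the 17 calls became 107 without the filter, 7 in thinned rods, 2 up to 2 times the median UMIs, 75 over and 6 up to 3000 UMIs, and 21 to 82 with a library left out. At 18 against 12 weeks the 27 calls became 129, 11, 5, 58 and 17 in the same order, 57 with the 4 libraries compared, and 16 to 73 with a library left out. The 165 differences from cones became 45 in thinned cells and 77 to 204 with a library left out, and the 261 differences from other cells became 33 in thinned cells, 2 with limma and voom and 77 to 278 with a library left out. Apart from fewer cells, counts, genes or libraries in some of these fits, the cause was not tested.

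Replicate numbers do not pair the libraries, as deviations of equal numbers correlated at −0.53, −0.32 and 0.37 between 6 and 12, 6 and 18, and 12 and 18 weeks over 2618 genes. With the replicate block 243, 24 and 51 genes were called at 18 against 6, 12 against 6 and 18 against 12 weeks. Crossed numbers at 6 weeks, chosen after seeing the data, gave 996, 147 and 295. Differences of shares and depths keep their value under the block (15.8 percentage points for rods of rods and cones).

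The 18 minus 6 weeks difference in rods of rods and cones was 19.8 points over and 8.80 up to 3000 UMIs, and the 12 minus 6 weeks difference in rods of all cells was 3.75 and 1.07 points. With a library left out, rods of rods and cones differed by 14.4 to 17.2 (18 minus 6), 6.99 to 17.7 (12 minus 6) and −1.91 to 8.77 points (18 minus 12), rods of all cells by 3.50 to 6.95, 1.35 to 2.49 and 1.58 to 5.03 points, median UMIs by −511 to 175.5, −110.75 to 691 and −859 to −57, and genes at 1000 UMIs by −32 to 5, −31 to 6 and −18 to 16.

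At 18 against 6 weeks the sign changed only for 5 named genes, none of them called with all rods and libraries. With a library left out the log2 change ran from −0.29 to 0.13 for GNAT1, −0.19 to 0.38 for SAGA, −0.0052 to 0.18 for NRL and −0.23 to 0.0997 for CNGA1(2OF2). In rods up to 2 times the median UMIs and up to 3000 UMIs it was −0.39 and −0.40 for SAGA, 0.067 and 0.085 for CNGA1(2OF2), and −0.0698 and −0.12 for CNGB1(2OF2), and SAGA was at −0.11 in thinned rods. Of 1674 comparisons of a named gene with an alternative, 1327 kept their side of the threshold, 317 lost a call and 19 gained one.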

Other observations

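Several abundant transcripts differed in share between rods of different depth. CCDC88B had a mean of 34860 CPM in rods over 3000 UMIs and 81578 CPM in shallower rods, lower in the deeper rods of all 6 libraries. FTH1A, a ferritin subunit and a member of the antioxidant list, had 4225 and 1828 CPM and was higher in the deeper rods of all 6 libraries. Of 798 genes at 200 CPM or more in either class, 334 were higher and 296 lower in the deeper rods of all 6 libraries. Red blood cell markers summed to 114 CPM in the rods of 18-week-old replicate 1 and to 0 to 1.28 CPM in those of the other 5 libraries.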
